A study of Mus musculus with 7 samples.

Results

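The respiratory chain genes of 7 mouse lymphoma cell lines are described here, in lines with and without functional Smchd1, which encodes a protein of silent chromatin. They were chosen by symbol, as genes beginning with mt-Nd, mt-Co, mt-Atp, mt-Cyt, Ndufa, Ndufb, Ndufc, Ndufs, Ndufv, Uqcr, Cox4 to Cox8, or Sdha to Sdhd, and 95 of the 27179 genes in the tables met the rule. Of these, 13 are encoded by mitochondrial DNA and 70 are nuclear genes for subunits. A further 8 are Ndufaf genes for complex I assembly factors, and 4 are annotated as pseudogenes by RefSeq. The rule leaves out some true subunits, such as Cyc1 of complex III and the nuclear genes of the ATP synthase.

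The lines were grown from end-stage lymphomas of male C57BL/6 mice carrying the Eµ-Myc transgene, in which an immunoglobulin heavy chain enhancer drives Myc in the B lineage, so every line of both groups carries that transgene. The wild-type group held 3 lines with wild-type Smchd1, and the Smchd1 null group held 4 lines labelled as homozygous for a Smchd1 gene trap, while the study's methods name the allele MD1. Each line is the outgrowth of a tumour, and no age is given by the labels. Wild-type replicate 1 was the only library of batch 1 and the only one read as single-end reads. The other 6 libraries were batch 2, read as paired ends, so batch and layout cannot be told apart from that line.

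Respiratory chain complexes carry electrons from NADH and succinate to oxygen in the inner mitochondrial membrane and pump protons that drive the ATP synthase. Complex I (NADH dehydrogenase), complex III (cytochrome bc1) and complex IV (cytochrome c oxidase) are built from subunits of both genomes, whereas complex II (succinate dehydrogenase) is wholly nuclear. The mitochondrial genome is transcribed from both strands as long precursors that are cut into single mRNAs, and Myc is known to raise the expression of many nuclear mitochondrial genes.

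Total counts ranged from 3626853 in wild-type replicate 1 to 7519549 in Smchd1 null replicate 4, and 3 counts, taken as the smallest level that could be shown, were worth from 0.399 to 0.827 CPM (counts per 1000000 counts of the library). Smchd1 was at 248.2, 230.3 and 218.7 CPM in wild-type replicates 1 to 3 and between 22.6 and 28.7 CPM in the Smchd1 null samples, and the groups did not overlap (log2 fold change -3.17 ± 0.11 (SE), limma FDR 2.0e-05). Wild-type replicates 2 and 3 were 1.27 apart in leading log2 fold change, while no other pair of libraries was closer than 3.11. Their counts differed by 3.82 times the sampling variance per gene, against 17.4 or more for every other pair within a group, so they were more than sampling noise apart but far more alike than other replicates. They received the largest weights in the fit, 3.79 and 3.07, against 0.245 for wild-type replicate 1 and 0.251 for Smchd1 null replicate 4. B lineage markers such as Cd79b were present in every library, but Cd22 was at 25.4 CPM and Pax5 at 16.6 CPM in Smchd1 null replicate 4, against 180.1 to 341.2 and 51.3 to 84.9 CPM in the others. Of the T cell markers Cd3e and Cd8a had no count in any library, and neither had Kdr (endothelial), Dcn and Pdgfra (fibroblast), or Myh7 and Mb (striated muscle). Other markers of these cells were counted: Lck was at 60.9 CPM in wild-type replicate 1 and 0.964 to 17.6 CPM elsewhere, and Pecam1 (endothelial) at 44.1 to 219.03 CPM. Tcf7 (T cell) reached 10.2 CPM in Smchd1 null replicate 4, and Col1a1 and Col1a2 (fibroblast) were at 5.51 and 3.86 CPM in wild-type replicate 1 and at 0 to 0.266 CPM elsewhere. The summed T cell markers ran from 18.5 to 66.7 CPM in wild-type and from 1.29 to 22.2 CPM in Smchd1 null samples, the endothelial from 48.5 to 71.4 and from 63.4 to 223.4 CPM, and the fibroblast from 0 to 9.37 and from 0 to 0.266 CPM. The part of other cells in the results was not tested.

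The mitochondrially encoded subunits were read first. Along part of the mitochondrial genome they share their sequence with a nuclear copy of mitochondrial DNA on chromosome 1, and 3 pairs of 100-base stretches show how closely. Each pair gives the mitochondrial gene, then its nearest annotated nuclear copy, with the bases that differ in capitals (GRCm38, GENCODE M21 transcripts, in the direction of transcription). The first pair is from mt-Atp6 (chrM:8216-8315, plus strand) and Gm10925 (chr1:24614263-24614362, minus strand), which were identical over all 678 aligned bases.
mt-Atp6: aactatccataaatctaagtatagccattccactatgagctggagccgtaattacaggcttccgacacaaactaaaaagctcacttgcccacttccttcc
Gm10925: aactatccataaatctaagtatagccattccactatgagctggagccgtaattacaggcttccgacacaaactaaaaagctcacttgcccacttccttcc
The second pair is from mt-Nd3 (chrM:9459-9558, plus strand) and Gm28438 (chr1:24613020-24613119, minus strand), and it holds the only difference in 345 aligned bases.
mt-Nd3: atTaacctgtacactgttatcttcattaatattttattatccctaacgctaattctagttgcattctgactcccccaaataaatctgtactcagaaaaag
Gm28438: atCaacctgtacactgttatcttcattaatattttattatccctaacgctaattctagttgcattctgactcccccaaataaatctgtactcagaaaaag
The third pair is from mt-Cytb (chrM:14189-14288, plus strand) and Gm11410 (chr4:80004033-80004132, plus strand), an older copy that differed at 82 of 1143 aligned bases, 7 of them shown.
mt-Cytb: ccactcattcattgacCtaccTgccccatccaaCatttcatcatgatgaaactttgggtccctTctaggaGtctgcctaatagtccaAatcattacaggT
Gm11410: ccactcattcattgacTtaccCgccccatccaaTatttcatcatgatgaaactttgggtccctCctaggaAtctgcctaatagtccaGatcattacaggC

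The chromosome 1 copy lies on the minus strand between 24611535 and 24616197, and GENCODE annotates 7 pseudogenes in it, in the same order as on the mitochondrial genome. Windows of 100 bases, the read length, were compared with every other annotated transcript. An exact match to another gene was found for 99.9% of the windows of mt-Co3, 99.5% of those of mt-Co2 and of mt-Atp6, 98.5% for mt-Nd4l and 97.6% for mt-Nd3. The share was 60.8% for mt-Nd4 and 30.8% for mt-Co1. It was 3.19% for mt-Nd2 and 0 for mt-Nd1, mt-Nd5, mt-Nd6, mt-Cytb and mt-Atp8. The last of these lies between mt-Co2 and mt-Atp6, and the stretch of chromosome 1 that corresponds to it holds no annotated gene.

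Read along the genome, 6 adjacent genes were nearly missing from the single-end library. They span chrM:7013-10173 and were mt-Co2, mt-Atp8, mt-Atp6, mt-Co3, mt-Nd3 and mt-Nd4l. mt-Co2, the subunit of complex IV that takes electrons from cytochrome c, was at 89.9 CPM in wild-type replicate 1, at 2670 and 3029 CPM in wild-type replicates 2 and 3, and at 2339, 2935, 2031 and 1915 CPM in Smchd1 null replicates 1 to 4. The single-end library was far below every other, and the other 6 overlapped between groups. mt-Co3, of the catalytic core of complex IV, was at 104.5 CPM there against 2182 to 2769 CPM in the other libraries. mt-Atp6, the proton channel subunit of the ATP synthase, was at 118.6 CPM against 1682 to 2376 CPM, and mt-Atp8, whose mRNA overlaps it, at 10.8 CPM against 359.9 to 525.1 CPM. The complex I subunits mt-Nd3 and mt-Nd4l were at 21.0 and 8.0 CPM, against 248.7 to 308.4 and 161.9 to 240.1 CPM. All 6 were thus at 2.44% to 7.31% of their mean over the paired-end libraries.

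**Figure D1:**
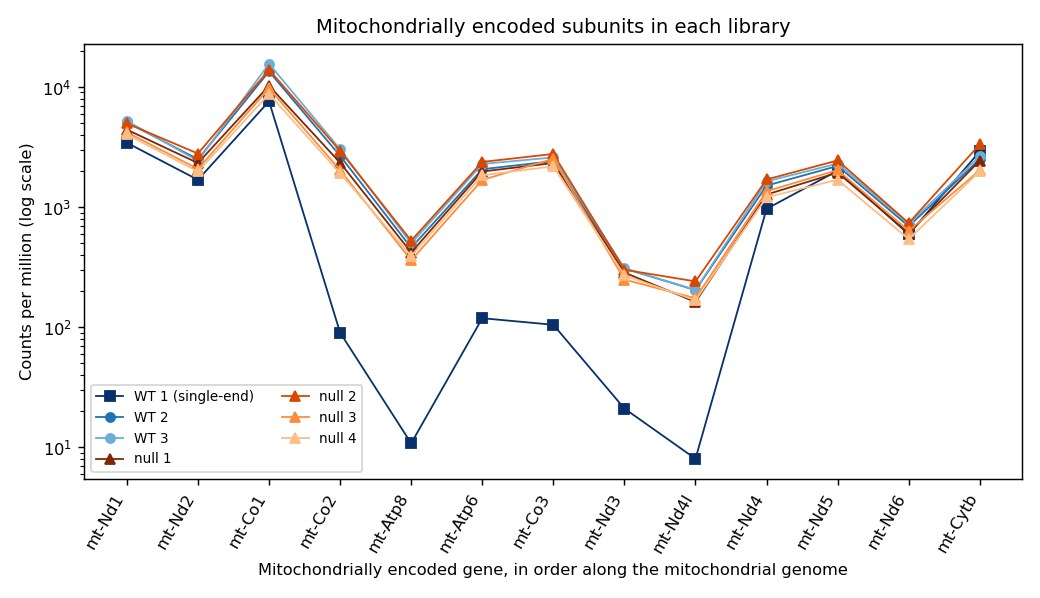
CPM (log axis) of the 13 mitochondrially encoded genes, in genome order, with 1 line per library (squares, single-end wild-type replicate 1; circles, wild-type replicates 2 and 3; triangles, Smchd1 null). From mt-Co2 to mt-Nd4l the single-end library falls to between 2.44% and 7.31% of the mean of the other 6, which run close together.

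Outside that stretch the single-end library was much closer to the others. mt-Nd4, of which the nuclear copy matches the start, was at 966.1 CPM in it and at 1205 to 1698 CPM in the paired-end libraries, or 66.8% of their mean. mt-Co1, the catalytic subunit of complex IV, was the most abundant gene by count, at 7604 CPM in it and 8732 to 15627 CPM elsewhere (63.6%). The 5 genes there with under 5% of shared windows reached from 71.8% (mt-Nd2) to 117.1% (mt-Cytb, which encodes cytochrome b of complex III). mt-Nd1 and mt-Nd2 were the lowest of the 7 libraries there too, at 3429 and 1686 CPM, while mt-Nd5, mt-Nd6 and mt-Cytb lay within the range of the others. A filter on low counts kept 12303 genes, those that reached 0.5 CPM in no fewer than 3 libraries, and 188 of these were in the single-end library at under 5% of the lowest paired-end library, and 4 of them were respiratory chain genes (mt-Co2, mt-Atp8, mt-Co3 and mt-Nd4l). How reads with more than 1 best position were counted is not given in the sources used here, and the part of read layout in the missing stretch was not tested.

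Levels differed widely between the mitochondrial genes once scaled to length. In FPKM (the CPM per kilobase of the gene length in the tables) the mean over the 7 libraries was 7337 for mt-Co1, 4679 for mt-Nd1 and 2227 for mt-Cytb, and 1145 for mt-Nd5, which lies far down the transcript. mt-Nd6, the only one of them on the other strand, was at 1245 FPKM and overlaps mt-Nd5 at its end. A strand setting for the counts is not given in the sources used here, and without one reads from the overlap cannot be told apart.

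None of the 13 mitochondrial genes passed the test between groups, with 0 at an unadjusted p under 0.05, and none was called under any alternative run. With voom and sample weights, limma's estimates of the log2 fold change (Smchd1 null over wild-type) ran from -0.31 ± 0.18 (SE) for mt-Co1 (limma FDR 0.27) to 0.18 ± 0.51 for mt-Co3 (limma FDR 0.84). The error was the clearest contrast between them, since it was from 0.43 (mt-Nd3) to 0.60 (mt-Atp8) in the 6 genes of the missing stretch and from 0.10 (mt-Nd6) to 0.18 (mt-Co1) in the other 7. Estimates in the stretch rested on the weight given to 1 library. Without wild-type replicate 1, mt-Co2 was at -0.21 and mt-Co3 at 0.01, and without wild-type replicate 2 they were at 2.27 and 2.32 (without wild-type replicate 3, at 2.34 and 2.35). No call was made under any of these. Without wild-type replicate 1, the 6 genes of the stretch ran from -0.21 ± 0.14 (SE, mt-Co2) to 0.01 ± 0.09 (SE, mt-Co3), with errors of 0.09 to 0.14. With that library in the fit, the errors were too wide to read a difference in this stretch in either direction.

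Summed over the genes, the mitochondrial contribution varied and the nuclear did not. The 13 mitochondrial genes held 19549, 36093 and 39492 CPM in wild-type replicates 1 to 3 and 30742, 39018, 29078 and 26920 CPM in Smchd1 null replicates 1 to 4. The means were 31711 ± 10669 (SD, n = 3) and 31440 ± 5289 (SD, n = 4), which differ by less than the spread in either group. The log2 ratio of the means, Smchd1 null over wild-type, was -0.012, and without wild-type replicate 1 it was -0.27. The 82 nuclear genes held between 7499 and 8048 CPM in every library, with means of 7652 ± 140.1 (SD, n = 3) and 7845 ± 170.8 (SD, n = 4). Mitochondrial genes therefore took from 1.95% to 3.95% of a library and nuclear ones from 0.750% to 0.805%.

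The ratio of the mitochondrial to the nuclear sum was 2.55, 4.81 and 5.08 in wild-type replicates 1 to 3 and 3.898, 4.85, 3.72 and 3.52 in Smchd1 null replicates 1 to 4. The single-end library was the lowest, and Smchd1 null replicate 2 lay among the paired-end wild-type libraries. With only mt-Nd1, mt-Nd2, mt-Nd5, mt-Nd6 and mt-Cytb, the 5 genes outside the missing stretch with under 5% of windows shared, chosen after the data were seen, the ratio was 1.38, 1.73 and 1.71 in the wild-type group and 1.49, 1.77, 1.40 and 1.34 in the Smchd1 null group. mt-Atp8, which shares no window, lies in that stretch and was left out. The single-end library was then inside the range of the Smchd1 null samples. The 6 genes of the missing stretch were 0.0332 times these 5 in the single-end library and between 0.625 and 0.670 times them in the other 6. In bulk RNA, a lower sum may come from fewer mitochondrial transcripts per cell or more of other RNA, which cannot be told apart.

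**Figure D2:**
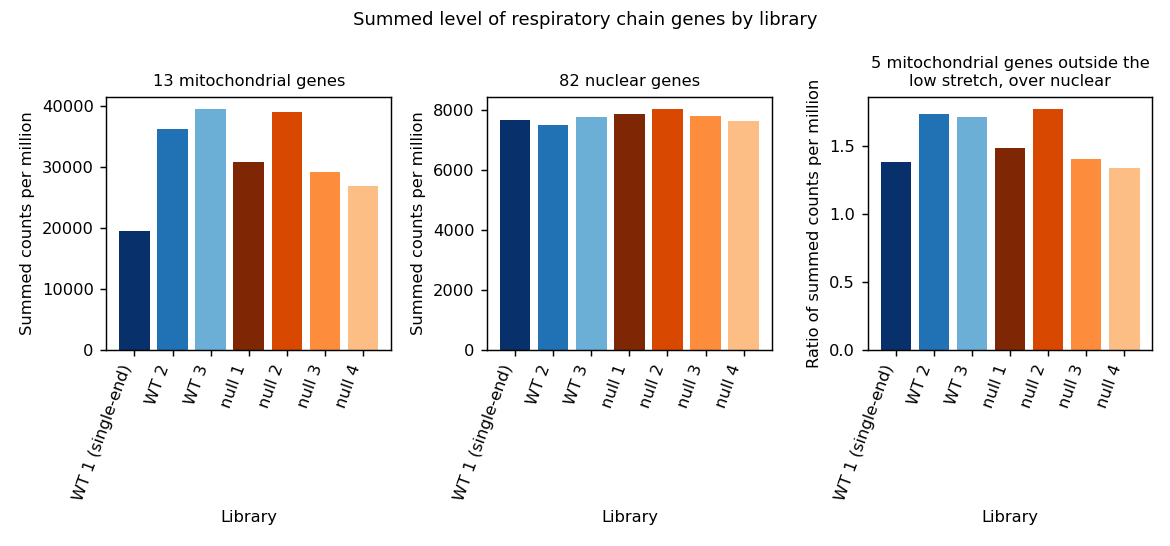
Summed CPM of the 13 mitochondrial and the 82 nuclear genes, and the ratio of mt-Nd1, mt-Nd2, mt-Nd5, mt-Nd6 and mt-Cytb to the nuclear sum, in 1 bar per library. The nuclear sum stays between 7499 and 8048 CPM, while the mitochondrial sum runs from 19549 to 39492.

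The nuclear subunits were expressed at a steady level in all lines. Of the 70 genes, 63 passed the filter, and the median SD of their log2 CPM over the 7 libraries was 0.22, against 0.37 for all genes tested. Since lower genes vary more, the comparison was repeated for genes with a mean of 50 to 500 CPM, where the median SD was 0.21 for 42 subunits and 0.27 for 4513 genes. Complex by complex, the 40 complex I genes summed to between 3175 and 3512 CPM, the 8 of complex III to between 1191 and 1410, and the 18 of complex IV to between 1773 and 2292. The 4 genes of complex II summed to 590.6 CPM in wild-type replicate 1 and to between 708.2 and 806.1 CPM elsewhere.

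Levels per length put one complex beside the next. In complex I, the highest of 39 subunits was Ndufa4, named for complex I but found in complex IV, at a mean of 380.7 FPKM (350.9 to 432.1), and the median subunit was at 98.5 FPKM. In complex II, Sdhb, the iron-sulfur subunit, was highest at 200.03 FPKM (173.5 to 232.6). In complex III, Uqcr10, a small subunit, was highest at 288.8 FPKM (217.4 to 326.1), and in complex IV, Cox8a led at 627.7 FPKM (454.8 to 918.7) ahead of Cox4i1 at 623.4.

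Some of the lowest subunits were genes with near copies, for which the counts are uncertain. Ndufb4 was at 7.89 FPKM and shares 33.4% of its windows with another gene, while its copies Ndufb4b and Ndufb4c were at 78.9 and 95.8 FPKM. Cox7c, a small complex IV subunit, was at 17.9 FPKM and shares 44.4% of its windows. Uqcrb of complex III was at 45.6 FPKM and shares 15.8%. Sdhd, a membrane anchor of complex II, was at 3.42 FPKM (2.62 to 4.51), the lowest subunit tested, with no exact shared window. The single-end library stood apart for this group as well. Ndufb4b was at 5.51 CPM in it against 24.5 to 55.6 CPM in the others, Ndufb4c at 105.6 against 23.5 to 52.8 CPM, and Cox7c at 2.48 against 7.62 to 10.4 CPM.

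Loss of Smchd1 was then tested across all genes, with limma's voom and sample weights. Of the 88 respiratory chain genes tested, 5 passed an FDR of 0.05, against 12.0% of all 12303 genes. In the Smchd1 null lines 1 was higher (5.02% of all genes were called higher) and 4 were lower (6.96% of all genes were called lower). The 5.68% of members called was below that background. The median log2 fold change of the 63 subunits was 0.17, with 48 above 0 and 15 below. That of all genes tested was -0.01, with 6007 above 0 and 6296 below. For subunits with 50 to 500 CPM the median was 0.15 (32 above 0 and 10 below), and for all genes in that range 0.05 (2538 above and 1975 below). The lean was smaller in other fits. Over all 88 members the median was 0.15 here, 0.07 with voom alone, 0.05 with edgeR and 0.06 with DESeq2. Without wild-type replicate 2 it was 0.08, and without wild-type replicate 3 it was 0.07.

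The 1 gene that rose was Uqcr10 (Entrez 66152, chr11:4701968-4704344). It was at 142.5, 106.0 and 95.9 CPM in wild-type replicates 1 to 3 and at 143.8, 136.7, 132.8 and 133.8 CPM in Smchd1 null replicates 1 to 4. The single-end library lay within the Smchd1 null range, so the groups overlapped, and the call rests on wild-type replicates 2 and 3. Its log2 fold change was 0.42 ± 0.10 (SE) with a limma FDR of 0.033, which ran from 0.027 without wild-type replicate 1 to 0.93 without wild-type replicate 2. Without wild-type replicates 2 and 3 in turn, the log2 fold change was 0.27 and 0.19.

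Of the 4 that fell, 3 are described. Ndufv1 (Entrez 17995, chr19:4007499-4012755) binds NADH. It was at 146.4, 214.5 and 241.7 CPM in wild-type replicates 1 to 3 and at 164.2, 156.3, 179.9 and 148.3 CPM in Smchd1 null replicates 1 to 4. Wild-type replicate 1 was the lowest of the 7 (log2 fold change -0.46 ± 0.12 (SE), limma FDR 0.047). Without wild-type replicates 2 and 3 in turn, the log2 fold change was -0.19 and -0.10, and the call was lost. Ndufb8 (Entrez 67264, chr19:44548571-44555442), an accessory subunit, was at 127.4, 158.1 and 179.8 CPM and at 127.1, 113.7, 132.8 and 133.4 CPM in the same order, and wild-type replicate 1 again lay among the Smchd1 null samples (log2 fold change -0.44 ± 0.11 (SE), limma FDR 0.043). Without wild-type replicates 2 and 3 in turn, it was -0.28 and -0.19, and this call was lost too. Of the Smchd1 null lines, leaving out any 1 also moved both genes above the FDR threshold.

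The third was Cox7a1 (Entrez 12865, chr7:30184171-30186030), the form of a complex IV subunit known from heart and skeletal muscle. It was at 2.48, 4.76 and 4.69 CPM in wild-type replicates 1 to 3 and at 1.93, 1.77, 1.24 and 0.931 CPM in Smchd1 null replicates 1 to 4. The groups did not overlap, although the counts behind these values were only 7 to 32 reads. Its log2 fold change was -1.51 ± 0.31 (SE) with a limma FDR of 0.024, the smallest FDR among the members. Without wild-type replicates 2 and 3 in turn, it was -1.145 and -1.137, and the call was lost. Cox7a1 also lost its call without Smchd1 null replicate 1, 2 or 3, and kept it without wild-type replicate 1 or Smchd1 null replicate 4. Its widely expressed partners Cox7a2 and Cox7a2l, the latter a factor of supercomplex assembly, were at 8.53 to 18.7 and 96.8 to 202.4 CPM, with log2 fold changes of 0.19 ± 0.20 and -0.06 ± 0.18 (SE) that did not pass.

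**Figure D3:**
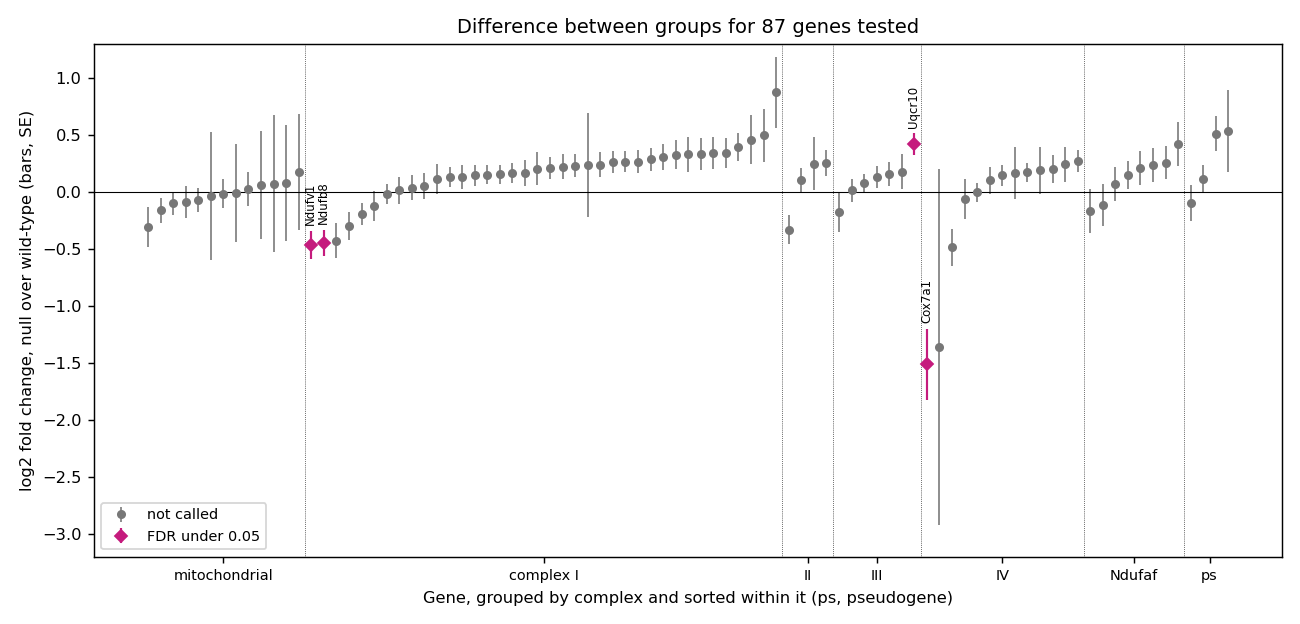
Estimates of the log2 fold change (Smchd1 null over wild-type) with their SE for 87 of the 88 genes tested, grouped by origin and complex and sorted within each group; diamonds mark an FDR under 0.05. Most subunits lie a little above 0, 4 called genes are named, and the bars of Cox6a2 and of the 6 mitochondrial genes of the missing stretch are wider than those of the other 7 mitochondrial genes.

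The calls depended on the way libraries were weighted. With voom alone, 0 members passed (0.0975% of all genes did), and 7 had an unadjusted p under 0.05. The quasi-likelihood test of edgeR gave 0 (0.0975% of all genes) with 6 under an unadjusted p of 0.05, and DESeq2 gave 0 (3.21% of the genes it gave an adjusted p) with 7. Block weights, which gave factors of their own to the single-end library and to Smchd1 null replicate 4, called 1, Cox7a1 (3.93% of all genes). With limma and sample weights but without wild-type replicate 1, 8 members were called (13.4% of all genes). Without wild-type replicate 2, without wild-type replicate 3, and with these libraries added together as 1 sample, 0 were called, and 5, 2 and 2 members had an unadjusted p under 0.05. In each of these fits 1 of the 12303 genes was called (0.00813%), and 737, 782 and 790 genes had an unadjusted p under 0.05.

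Groups that did not overlap in CPM gave another view. Every Smchd1 null library was above every wild-type library for 13 of 88 members, or 14.8%, against 6.35% of all genes tested. They were Ndufa6, Ndufa8, Ndufab1, Ndufb4b, Ndufb10, Ndufb11, Ndufs3, Ndufs4, Ndufs6, Ndufs7, Ndufv2 and Cox6c, together with the pseudogene Ndufs6b. Their log2 fold changes ran from 0.15 (Ndufs7) to 0.51 (Ndufs6b), and none of the 13 passed the test. Ndufb4b was at 0.50, and its lowest level, 5.51 CPM, was in the single-end library, against 24.5 to 55.6 CPM in the others. Ndufs4, an accessory subunit of complex I, was at 41.9, 51.3 and 48.1 CPM in wild-type replicates 1 to 3 and at 58.2, 58.1, 64.7 and 65.0 CPM in Smchd1 null replicates 1 to 4 (log2 fold change 0.27 ± 0.09 (SE), limma FDR 0.10). For 3 members, Ndufs8 and Cox7a1 among them, every Smchd1 null library was lower, or 3.41% against 6.85% of all genes.

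Lines also had shifts in the median level of all genes tested on a chromosome, and with some of these the subunits moved the same way. These were measured as the log2 level of a gene in a library less its mean over all 7 libraries, and the median over all tested genes of a chromosome was set beside the members. On chromosome 19, with 433 genes tested, the median was 0.33 and 0.48 in wild-type replicates 2 and 3 and between -0.19 and -0.09 in the other 5 libraries. Of the 5 members there, Cox8a, Ndufv1, Ndufb8 and Ndufs8 were higher in both of these lines than in every Smchd1 null line. Cox8a was at 247.9, 425.6 and 500.7 CPM in wild-type replicates 1 to 3 and at 316.3, 362.7, 279.6 and 261.9 CPM in Smchd1 null replicates 1 to 4. The exception was Ndufb4b, the copy of Ndufb4.

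Of the 5 called members, 2 lay on chromosome 19. Of all genes tested on chromosome 19, 38.1% were called lower in the Smchd1 null lines and 0.462% higher, and their median log2 fold change was -0.56. Ndufv1 at -0.46 and Ndufb8 at -0.44 lay 0.10 and 0.12 above that median. On chromosomes 7 and 11 the medians were 0.03 and 0.04, against -1.51 for Cox7a1 and 0.42 for Uqcr10. Of the genes tested there, 3.41% on chromosome 7 were called lower and 5.07% on chromosome 11 were called higher. Chromosome number was not measured, and its part in these values was not tested.

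On chromosome 13, wild-type replicate 1 was low instead. The median of 478 genes was -0.59 in it and between 0.02 and 0.18 in the other libraries. It held the lowest level of the 7 libraries for 5 of 7 members there. Sdha, the flavoprotein subunit of complex II, was at 238.8 CPM in wild-type replicate 1, at 373.8 and 355.0 CPM in wild-type replicates 2 and 3, and at 437.2, 452.5, 408.8 and 366.8 CPM in Smchd1 null replicates 1 to 4. Uqcrfs1, the Rieske iron-sulfur protein of complex III, was at 105.9 CPM against 198.4 to 266.6 CPM in the others. Ndufs6, Ndufs4 and Cox7c were also lowest in that line. On chromosome 15, with 453 genes, the median was 0.43 in Smchd1 null replicate 4 and between -0.13 and 0.03 elsewhere. Cox6c was at 194.6 CPM in that line against 125.4 to 150.3 CPM in the others, Ndufb9 at 186.9 against 101.0 to 136.7 CPM, and Ndufa6 at 44.0 against 17.4 to 36.6 CPM. That line was the highest of the 7 for these 3 of the 5 members there, while Ndufb4c was highest in wild-type replicate 1 (105.6 CPM) and Uqcrh-ps1 was lowest in Smchd1 null replicate 4 (12.1 CPM). Other chromosomes went apart from their members. On chromosome 16, Smchd1 null replicate 4 exceeded the other Smchd1 null lines by a median of 0.47 over all genes and 0.03 over 3 members, and on chromosome 1, the difference of wild-type replicates 2 and 3 from the Smchd1 null lines was 0.16 over all genes and -0.08 over 6 members. On chromosome 3 the median was -0.40 in Smchd1 null replicates 1 and 2 and between 0.09 and 0.29 elsewhere, and Ndufb5 was at 123.1 and 135.6 CPM in these lines against 165.6 to 191.5 CPM.

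**Figure D4:**
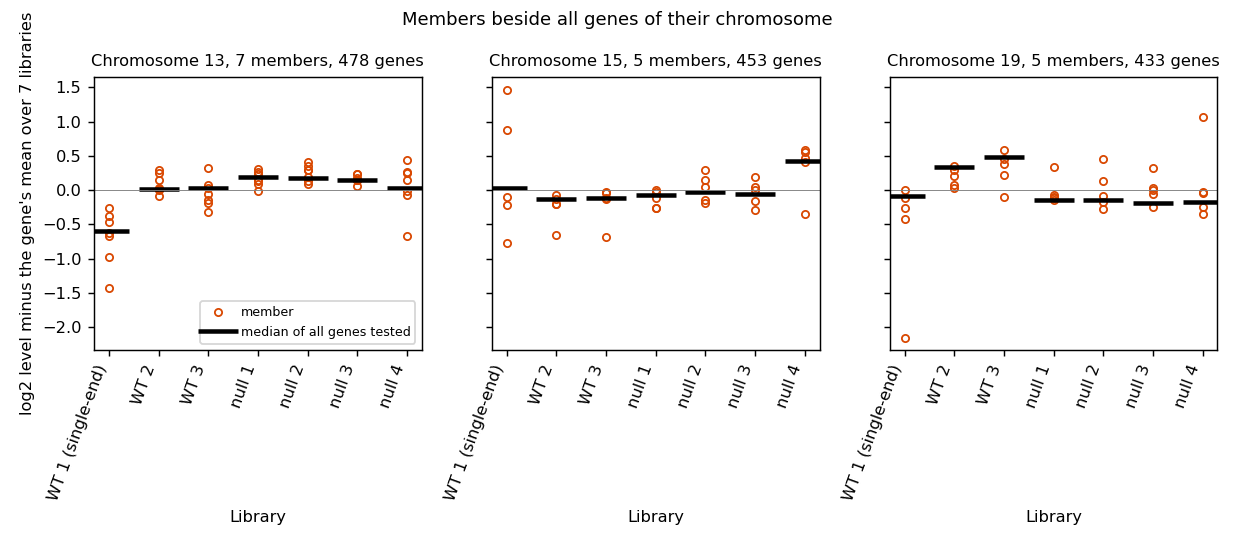
Deviation of each member (open circles) from its own mean over the 7 libraries, on the log2 scale, beside the median of all genes tested on the same chromosome (black bars). The bar is lowest in wild-type replicate 1 on chromosome 13 (-0.59), highest in Smchd1 null replicate 4 on chromosome 15 (0.43), and highest in wild-type replicates 2 and 3 on chromosome 19 (0.33 and 0.48).

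The other genes of complex II were on different chromosomes and showed no common direction. Sdhb was at 249.8, 193.1 and 189.7 CPM in the wild-type samples and at 238.6, 186.3, 212.1 and 234.3 CPM in the Smchd1 null samples. Sdhc, a membrane anchor, was at 96.2, 147.5 and 160.2 CPM and at 125.3, 117.9, 110.0 and 157.9 CPM, and Sdhd was between 3.37 and 5.79 CPM in all 7. The groups overlapped for all 4 genes. Estimates of the log2 fold change were 0.26 ± 0.11 (Sdha), 0.11 ± 0.11 (Sdhb), -0.33 ± 0.13 (Sdhc) and 0.25 ± 0.23 (Sdhd) (SE), and the smallest limma FDR was 0.12.

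Several subunits exist in a widely expressed form and in a form known from particular tissues. The wide forms Cox4i1, Cox6a1, Cox6b1, Cox7b and Cox8a lay between 133.2 and 500.7 CPM in every library. Their partners Cox7b2, Cox8b and Cox8c had no count in any of the 7, below 0.827 CPM in the shallowest, and Cox4i2 and Cox6b2 had at most 1 read in any library. Cox6a2, the heart and skeletal muscle form of subunit 6a, was the exception. It was at 1.103, 5.08 and 11.7 CPM in wild-type replicates 1 to 3 and at 0, 3.85, 63.9 and 55.6 CPM in Smchd1 null replicates 1 to 4. Smchd1 null replicates 3 and 4 were high and replicate 1 had no read, so the spread within the Smchd1 null group covered all wild-type samples (log2 fold change -1.36 ± 1.57 (SE), limma FDR 0.59). Means over samples ran the other way, at 5.97 ± 5.37 (SD, n = 3) and 30.8 ± 33.6 CPM (SD, n = 4).

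Ndufa4l2, a relative of Ndufa4 known to be induced by low oxygen, was read in only 2 lines. It had 126 and 200 reads in wild-type replicates 2 and 3, or 20.7 and 29.3 CPM, and 0 reads in wild-type replicate 1. Smchd1 null replicates 1 to 4 had 0, 1, 0 and 1 read. It therefore did not pass the filter. With no filter it was among the 4 of 92 members that limma called in either direction (8.65% of the 16882 genes were), a call that rests on the 2 closely related libraries. Its partner Ndufa4 was between 172.7 and 212.6 CPM in all 7. Of the 5 muscle markers, Ckm and Tnnt2 were also highest in wild-type replicates 2 and 3, at 6.23 and 4.84 CPM and at 5.25 and 3.52 CPM. Acta1 was instead highest in wild-type replicate 1, at 0.827 CPM against 0 to 0.328 CPM elsewhere, and Myh7 and Mb had no count. The sum of the 5 ran from 2.21 to 11.8 CPM in wild-type and from 0.133 to 1.24 CPM in Smchd1 null samples. The part of other cells in these values was not tested.

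**Figure D5:**
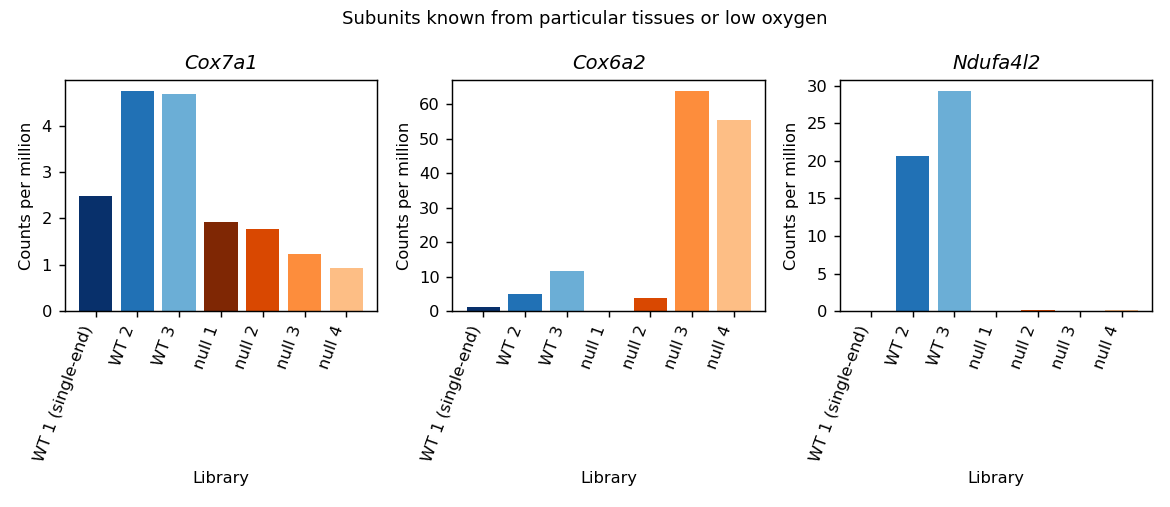
CPM of Cox7a1, Cox6a2 and Ndufa4l2 in 1 bar per library, each panel on its own scale from 0. Cox7a1 is highest in wild-type replicates 2 and 3, Cox6a2 in Smchd1 null replicates 3 and 4, and Ndufa4l2 has more than 1 read in wild-type replicates 2 and 3 alone.

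The X-linked members were examined because Smchd1 is known for its role on the inactive X, although a male line has none. None of the 3 passed. Ndufa1 was at 44.4 to 52.1 CPM and Cox7b at 133.2 to 187.2 CPM in all libraries. Ndufb11 was at 78.0, 75.1 and 90.6 CPM in wild-type samples and at 94.3, 100.4, 95.9 and 91.8 CPM in Smchd1 null samples, just without overlap, with a log2 fold change of 0.24 ± 0.11 (SE) and a limma FDR of 0.18.

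The 7 members that did not pass the filter were Ndufa4l2, Cox4i2, Cox6b2, Cox7b2, Cox8b, Cox8c and Uqcr11. The 8 assembly factors were all tested and none was called. Ndufaf4, which helps to assemble complex I, was lowest in Smchd1 null replicate 4, at 46.7 CPM against 99.5 to 140.3 CPM in the other 6 lines.

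Promoters of the members were searched for sequences known from nuclear respiratory genes. The search used 64 RefSeq (GRCm38.p6) promoters of 62 members, each 300 bases long, and the other 33 members had no promoter in it. The share with a motif on either strand was set beside that of all 32851 promoters searched, which need not be every promoter in RefSeq. The NRF1-type sequence GCGCATGC was in 14.1% of the members' promoters and 2.71% of all, the ETS-type CCGGAAG in 20.3% and 8.86%, and the YY1-type AAGATGGC in 12.5% and 2.75%. The hypoxia-type ACGTG was in 20.3% and 19.6%. Both of the first motifs were found for Sdhb, Cox6a1 and Uqcr11, of which Uqcr11 had at most 1 read in any library and did not pass the filter. The promoters of Sdhb and Cox6a1 are shown as examples with the matches in capitals (chr4:140961201-140961299, plus strand, and chr5:115348968-115349120, minus strand). In Cox6a1 the NRF1-type match is found on both strands, with the copies overlapping.
Sdhb: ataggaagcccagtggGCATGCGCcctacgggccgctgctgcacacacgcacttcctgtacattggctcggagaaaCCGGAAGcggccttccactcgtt
Cox6a1: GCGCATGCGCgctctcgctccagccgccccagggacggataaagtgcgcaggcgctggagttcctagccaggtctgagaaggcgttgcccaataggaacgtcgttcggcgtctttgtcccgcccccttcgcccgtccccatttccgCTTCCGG
Cox6a1 was at 251.7, 298.5 and 316.6 CPM in wild-type replicates 1 to 3 and at 309.5, 377.0, 300.6 and 236.7 CPM in Smchd1 null replicates 1 to 4, with overlap (log2 fold change 0.10 ± 0.12 (SE), limma FDR 0.59). A match to these letters is a description of the sequence and not a site of binding.

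Genes that serve the chain were read from 8 lists. Among 77 genes of the mitochondrial ribosome, which translates the 13 mitochondrial mRNAs, 9 rose and 0 fell with limma and sample weights, against 5.02% and 6.96% of all genes, and the median log2 fold change was 0.19. Mrpl33 was at 37.5, 31.8 and 32.0 CPM in wild-type samples and at 50.4, 49.8, 46.5 and 47.5 CPM in Smchd1 null samples, with no overlap (log2 fold change 0.61 ± 0.09 (SE), limma FDR 0.012). Mrpl41 was at 24.1 ± 1.51 (SD, n = 3) and 35.7 ± 2.40 CPM (SD, n = 4) and also did not overlap. The third was Mrpl42, at 87.7, 59.4 and 61.9 CPM and at 79.97, 84.8, 95.0 and 89.6 CPM, where the single-end library lay within the Smchd1 null range. With voom alone and with edgeR, 0 of the 77 were called, and DESeq2 called 2.

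The remaining lists were read beside the same shares, 5.02% of all genes called higher and 6.96% called lower. Of 19 nuclear ATP synthase genes, 1 rose and 1 fell, Atp5a1 (0.45 ± 0.12 (SE)) and Atp5pb (-0.59 ± 0.14 (SE)). Of 37 assembly factors outside the rule, 2 rose and 2 fell, and Cox20, which matures mt-Co2 protein, had the largest change at -0.82 ± 0.13 (SE), from 49.1 ± 3.55 (SD, n = 3) to 31.1 ± 6.86 CPM (SD, n = 4). The others were Coa3 (0.40 ± 0.10 (SE)), Coa7 (0.51 ± 0.14 (SE)) and Uqcc3 (-0.59 ± 0.16 (SE)). Of 16 genes for cytochrome c and ubiquinone synthesis, 1 fell, Coq8a (-1.29 ± 0.22 (SE)). Of 20 genes for mitochondrial DNA maintenance and transcription, 1 rose and 1 fell, Polg, the DNA polymerase (0.49 ± 0.13 (SE)), and Twnk, the helicase (-0.45 ± 0.10 (SE)). Of 20 genes for mitochondrial mRNA handling, 2 rose, Fastkd1 (0.75 ± 0.18 (SE)) and Ptcd2 (0.49 ± 0.12 (SE)). Of 11 regulators of biogenesis, Nrf1 rose (0.36 ± 0.09 (SE)) and the coactivators Crtc2 and Pprc1 fell (-0.54 ± 0.12 and -0.37 ± 0.09 (SE)). Of 17 citric acid cycle genes, 1 rose, Idh3a (0.40 ± 0.10 (SE)). Twnk, Pprc1 and Uqcc3 lie on chromosome 19, Coq8a and Cox20 on chromosome 1, and Atp5pb and Crtc2 on chromosome 3. The median log2 fold changes of all genes tested on these chromosomes were -0.56, -0.22 and -0.45. Without wild-type replicate 2 or without wild-type replicate 3, 0 genes of any of the 8 lists passed.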

How the data were processed

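RNA was extracted from 7 lymphoma lines and made into TruSeq libraries. The authors aligned 100-base reads to mm10 with Subread and summarised them per gene with featureCounts, and deposited raw counts with gene lengths. These deposited counts were not normalised and replicates were not pooled. RefSeq (GRCm38.p6) gave symbols for 25275 of 27179 Entrez identifiers (98.2% of counts). CPM is the count over the library total and FPKM adds the gene length. Genes that reached 0.5 CPM in no fewer than 3 samples were fitted in R 4.3.3 with limma 3.58.1 (TMM factors, voomWithQualityWeights, no covariate, eBayes) and Benjamini-Hochberg FDR over all genes, at 0.05. edgeR 4.0.16 and DESeq2 1.42.0 were alternatives. The fit was tested on simulated data. For log2 deviations 0.5 CPM was added. The floor of 3 counts marks only the smallest level taken as shown, and it measures neither counting error above it nor the spread between lines. P-values measure the spread between these lines, in the main fit as weighted by sample. In the wild-type group those weights were largest for replicates 2 and 3 (3.79 and 3.07, against 0.245 for replicate 1). These were the closest pair of libraries, so the main p-values may understate the spread between independent lines.

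The genes and lists were chosen with earlier results of these data known. Named genes are Smchd1, all mitochondrial members, called members, complex II, isoform pairs, the extremes of each complex by level per length and by spread, X-linked members, and up to 3 called genes per list; others (such as Cox6c, Ndufb5, Ndufaf4 and members named by chromosome or by groups that did not overlap) were named after their values were seen. Chromosome medians and the sum of 5 mitochondrial genes were added after the data were seen. Replicate numbers did not pair samples across groups. The results of 1 called member and of some markers are not reported here. They stayed in every fit and count.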

Additional observations from a re-analysis of the deposited data

Results flagged for a closer look

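In the Smchd1 null group, each of 41 values was examined for 1 line standing away from its group, and 3 stood out, where chance alone would give about 1 in 20, or 2.05. mt-Nd4l was at 240.1 CPM in Smchd1 null replicate 2 against 161.9 to 173.9 CPM in the other lines of the group. Ndufb4b was at 55.6 CPM in Smchd1 null replicate 4 against 32.9 to 36.3 CPM. Cox4i2 was at 0 CPM in Smchd1 null replicate 4 against 0.148 to 0.161 CPM in the others, a difference of 1 read.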

How the results depend on the processing

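The sums of CPM and their ratio moved by less than 1 SD between replicates under every alternative run (other library totals, TMM, subunits alone, medians, FPKM, 5 mitochondrial genes only, and each library left out), and Smchd1 kept its call under all. The count of members called was 5. It was 0 with voom alone, sample removal, edgeR, DESeq2, wild-type replicates 2 and 3 summed, and the replicate block, 1 with block weights and 10 at an FDR of 0.1, and it ran from 0 to 8 as single libraries were left out. Over all genes the count of 1474 became 12 with voom alone and with edgeR, 484 with block weights, 521 with sample removal, 382 with DESeq2, 1 with the summed replicates, 225 with the replicate block and 2771 at an FDR of 0.1, and ran from 1 to 1643 as libraries were left out. The replicate numbers did not pair the samples (mean correlation of deviations -0.05 for same numbers and 0.02 for different ones), so the block is not read as a paired design.

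The 4 called members described above kept their direction throughout. Uncalled log2 fold changes turned sign as follows. With voom alone they were 0.072 (mt-Nd2), 1.32 (mt-Co2), 1.06 (mt-Nd3), 0.040 (mt-Nd4), -0.16 (mt-Cytb) and 0.30 (Cox6a2). With block weights they were 0.13 (mt-Co2), 0.14 (mt-Nd3) and -0.053 (mt-Cytb). With sample removal they were -0.16 (mt-Atp8), -0.13 (mt-Atp6), -0.12 (mt-Nd4l) and -0.025 (mt-Cytb). With no filter mt-Nd3 was at 0.019. With edgeR they were 0.060 (mt-Nd2), 0.24 (mt-Co2), 0.36 (mt-Nd3), 0.013 (mt-Nd4), -0.12 (mt-Cytb) and 2.31 (Cox6a2). With DESeq2 they were 0.059 (mt-Nd2), 0.24 (mt-Co2), 0.36 (mt-Nd3), 0.013 (mt-Nd4), -0.13 (mt-Cytb) and 2.35 (Cox6a2). With the replicate block they were 0.093 (mt-Nd2), 0.40 (mt-Co2), 0.19 (mt-Nd3), 0.081 (mt-Nd4), 0.047 (mt-Nd5), 0.0092 (mt-Nd6), -0.0083 (Sdhb) and 1.23 (Cox6a2). With wild-type replicates 2 and 3 summed they were 0.14 (mt-Nd1), 0.27 (mt-Nd2), 0.14 (mt-Co1), 2.23 (mt-Co2), 1.56 (mt-Nd3), 0.25 (mt-Nd4), 0.032 (mt-Nd5), 0.044 (mt-Nd6), -0.032 (mt-Cytb) and -0.036 (Sdhb).

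With each library left out in turn the ranges were -0.27 to 0.15 (mt-Nd1), -0.20 to 0.29 (mt-Nd2), -0.54 to 0.20 (mt-Co1), -0.26 to 2.34 (mt-Co2), -0.14 to 2.49 (mt-Atp8), -0.13 to 2.07 (mt-Atp6), -0.14 to 1.72 (mt-Nd3), -0.12 to 2.01 (mt-Nd4l), -0.25 to 0.29 (mt-Nd4), -0.20 to 0.055 (mt-Nd5), -0.21 to 0.070 (mt-Nd6), -0.27 to 0.13 (mt-Cytb), -0.044 to 0.20 (Sdhb), -0.37 to 0.034 (Sdhc), -0.047 to 0.34 (Sdhd) and -2.97 to 1.70 (Cox6a2). The cause was not tested. Depth limits Cox7a1, with 7 to 32 reads per library, and genes below the floor.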
